A study of Homo sapiens with 9 samples.

Results

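Ribosome biogenesis and RNA polymerase I genes were followed in LN229 cells given formate. They are 43 genes chosen by symbol, and all 43 were found, each under 1 Ensembl identifier, among the 23727 genes of the deposited count table. By role, 7 encode RNA polymerase I or its factors, 8 encode proteins of the small nucleolar ribonucleoproteins (snoRNPs), 13 act in the small subunit processome or in 40S maturation, 11 act in 60S assembly and 4 are other nucleolar proteins. LN229 is an established human glioblastoma line, so every library comes from a single line; a source label spells its name LN299. Its cells grew in medium holding glucose (17 mM), glutamine (2 mM) and serum (10%) and received 500 µM sodium formate, the salt of a 1-carbon acid that feeds folate metabolism. The 9 libraries form 3 groups of 3, untreated cells taken at 0 h, cells after 8 h of formate and cells after 24 h of formate, and messenger RNA was sequenced. No untreated cells were analysed at 8 h or 24 h, so formate and time in culture cannot be told apart. The labels do not say that replicates were separate cultures, so p-values measure the spread between these libraries, which may be technical.

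Ribosomes are made in the nucleolus, where RNA polymerase I copies the ribosomal DNA into a long precursor RNA. snoRNPs modify that precursor, the small subunit processome folds and cuts it, and separate sets of assembly factors build the 40S and the 60S subunit. Many genes for these factors carry an E-box, the sequence CACGTG that MYC and related proteins bind, close to their start, and rapidly dividing tumour cells generally express them at a high level.

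The promoter windows of the genes are shown first because the E-box is a sequence feature that their choice did not use. RefSeq windows on GRCh38.p14, from 250 bases before to 50 bases after each annotated start, were at hand for 36 of the 43 genes. POLR1E, NOP58, NOLC1, RRP12, BOP1, RRS1 and DDX18 had no entry. The E-box reads the same on both strands, and 17 of the 36 genes held it (47.2%, exact 95% binomial interval 30.4 to 64.5%). The same letters stood in the windows of 12.5% of the 11151 genes that were tested for expression and had a window, in 28.3% of 92 other ribosome biogenesis genes and in 6.45% of 31 ribosomal protein genes. Each line below gives 30 bases on the strand of the gene, with the E-box in capitals. The first 7 are all of the 17 genes that were called lower at 24 h than at 0 h with the replicate number as a block. The last 3 are examples of those not called, and the others not called are left out.
BYSL: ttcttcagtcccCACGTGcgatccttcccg
PNO1: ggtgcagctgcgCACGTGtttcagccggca
LYAR: cggcggcgagtcCACGTGctccccgcggcc
GAR1: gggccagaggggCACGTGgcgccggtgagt
RRP9: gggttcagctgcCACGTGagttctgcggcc
PES1: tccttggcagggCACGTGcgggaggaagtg
UTP4: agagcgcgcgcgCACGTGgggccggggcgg
UTP20: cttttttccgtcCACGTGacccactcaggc
FBL: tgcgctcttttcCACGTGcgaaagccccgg
NAT10: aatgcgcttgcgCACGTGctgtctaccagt

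The windows lie at chr6:41921515-41921544 (plus strand) for BYSL, chr2:68157885-68157914 (plus) for PNO1, chr4:4290068-4290097 (minus) for LYAR, chr4:109815781-109815810 (plus) for GAR1 and chr3:51941892-51941921 (minus) for RRP9. Those of PES1, UTP4, UTP20, FBL and NAT10 lie at chr22:30591880-30591909 (minus), chr16:69132621-69132650 (plus), chr12:101280083-101280112 (plus), chr19:39846356-39846385 (minus) and chr11:34105602-34105631 (plus). Across the 17 genes the E-box began between 64 bases before the start (LYAR) and 36 bases after it (NOP2), before it in 6 genes and after it in 11. With only the bases before the start, the share was 13.9% (5 of 36 genes) beside 11.1% of the tested genes, so the difference between the shares lay mainly in the bases after the start. Genes with and without the E-box had similar fold changes. The median log2 fold change from 0 h to 24 h was -0.23 over the 17 genes with it (7 called with the block) and -0.25 over the 19 genes without it (8 called). With the block 11.6% of all genes passed as lower.

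**Figure D1:**
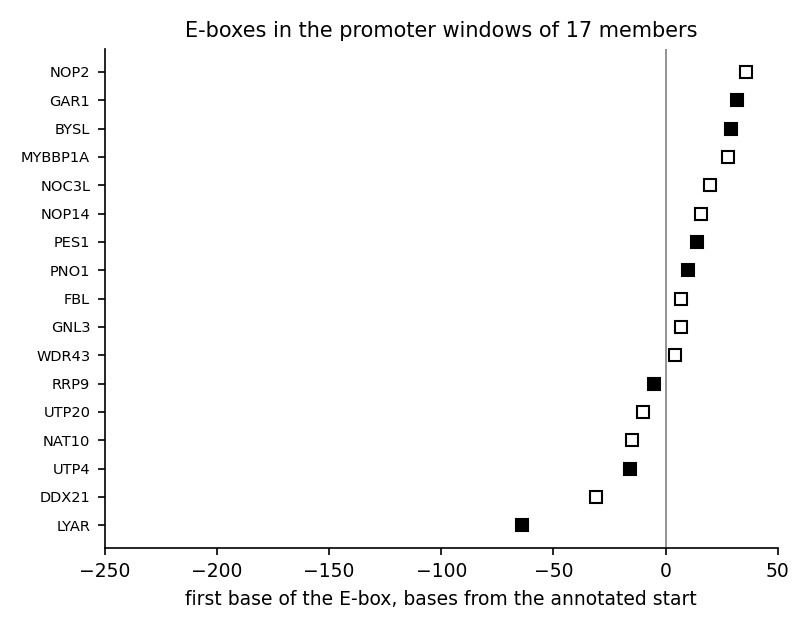
Position of the E-box (CACGTG) in the RefSeq promoter windows of the 17 genes that hold it; the horizontal axis gives the distance of its first base from the annotated start in bases, negative before the start, and each gene has a row. Filled squares are genes called lower at 24 h with the replicate block and open squares are the others; both kinds lie between -64 and 36, with no separation by position.

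Other promoter motifs were searched on both strands in the same windows. The ETS-type motif CCGGAAGT stood in 8 of the 36 genes (22.2%) and in 9.8% of the tested genes. The NRF1 motif stood in 3 genes (8.33%, beside 2.65%). These are matches of letters, and no binding was measured.

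Libraries held 22222298 to 25848242 counts, and 3 counts in the smallest correspond to 0.135 CPM (counts as a share of the library on a common scale, here adjusted with TMM factors of 0.92 to 1.06). The glioma and mesenchymal markers VIM (3199 to 6284 CPM), NES (887 to 1011), CD44 (704 to 1124), EGFR (73.2 to 137) and SOX2 (67.2 to 103) were high in every library, and PTPRC, EPCAM and PECAM1, of blood, epithelial and endothelial cells, stayed between 0 and 0.133 CPM, and the oligodendrocyte genes MBP and MOG did not exceed 0.82 CPM. Replicate 1 stood apart from replicates 2 and 3 at each time, and most at 0 h. The chi-square per degree of freedom over genes was 52.2 and 54.6 between untreated replicate 1 and replicates 2 and 3, and 7.91 between those. At 8 h it was 20.5 and 21.6 against 9.96. At 24 h it was 12.7 (replicates 1 and 2) and 22.3 (replicates 1 and 3) against 8.11. No pair of replicates agreed within counting noise. Same-numbered libraries deviated together between 0 h and 24 h, so a fit that takes the replicate number as a block is reported beside the one without it. That block also spans the libraries of 8 h. The pairing was not exclusive: replicate 2 of 24 h deviated more like untreated replicate 3 (r 0.27) than like untreated replicate 2 (0.164).

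After 24 h of formate the genes as a group stood lower than at the start, by an amount close to the spread between replicates. Their summed level was 8258, 6118 and 6162 CPM in untreated replicates 1, 2 and 3, and 6455, 5509 and 5200 CPM after 24 h. The sum was lower at 24 h under each number, but the groups overlapped, since replicate 1 at 24 h lay above untreated replicates 2 and 3. The means were 6846 ± 1223 CPM at 0 h and 5721 ± 654 at 24 h (SD, n = 3). CPM is a share of each library, and in bulk RNA a change in the kinds of cells present and a change in RNA per cell cannot be told apart.

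All 43 genes passed the filter on low counts and were tested with the whole table. In edgeR's quasi-likelihood test, adjusted over 15273 genes by the method of Benjamini and Hochberg, 0 of 43 passed an adjusted p of 0.05 at 24 h against 0 h, where 4.25% of all genes passed (1.77% lower). The smallest adjusted p was 0.06, of PNO1, and 15 of 43 genes had an unadjusted p under 0.05, beside 26.4% of all genes. Voom, from limma, also called 0. DESeq2 called 3 genes, BYSL, PNO1 and LYAR, all lower, where 10.8% of all genes passed (5.13% lower). With the replicate number as a block, edgeR called 20 of 43 (46.5%), all of them lower, and here 24.1% of all genes passed and 11.6% passed as lower.

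The fitted log2 fold change lay below 0 for 40 of 43 genes, beside 49.1% of all genes. Its median was -0.25, or 0.84 of the untreated level, and the median of all tested genes was 0.01. Single genes ran from -0.66 (LYAR) to 0.09 (POLR1A). Log2 fold changes of single genes are given below ± their standard error (SE). The libraries of 24 h all lay below those of 0 h for 9 genes, beside 14.4% of all genes, and for none did they all lie above. By role, the median was -0.10 for RNA polymerase I and its factors, -0.36 for the snoRNP proteins, -0.23 for the small subunit and 40S factors, -0.34 for the 60S factors and -0.29 for the other nucleolar proteins. Without number 1 in all groups these medians were -0.06, -0.22, -0.22, -0.25 and -0.28, so that the order of the roles changed. The difference between roles was not tested.

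**Figure D2:**
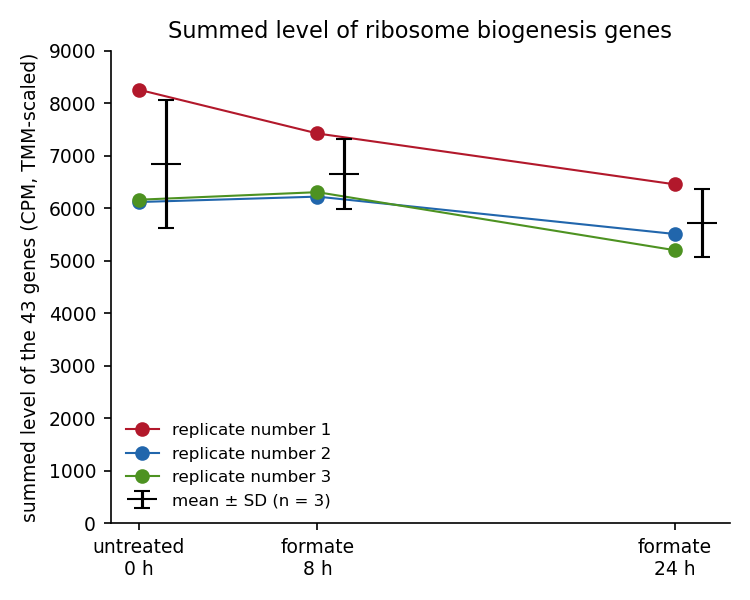
Summed level of the 43 genes in each of the 9 libraries, in TMM-scaled CPM, against the time of sampling in hours; colours mark the replicate number and lines join libraries of the same number. Black bars give the mean ± SD of each group (n = 3). Replicate 1 is the highest at each time, with 8258 CPM at 0 h, and each number is lowest at 24 h.

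**Figure D3:**
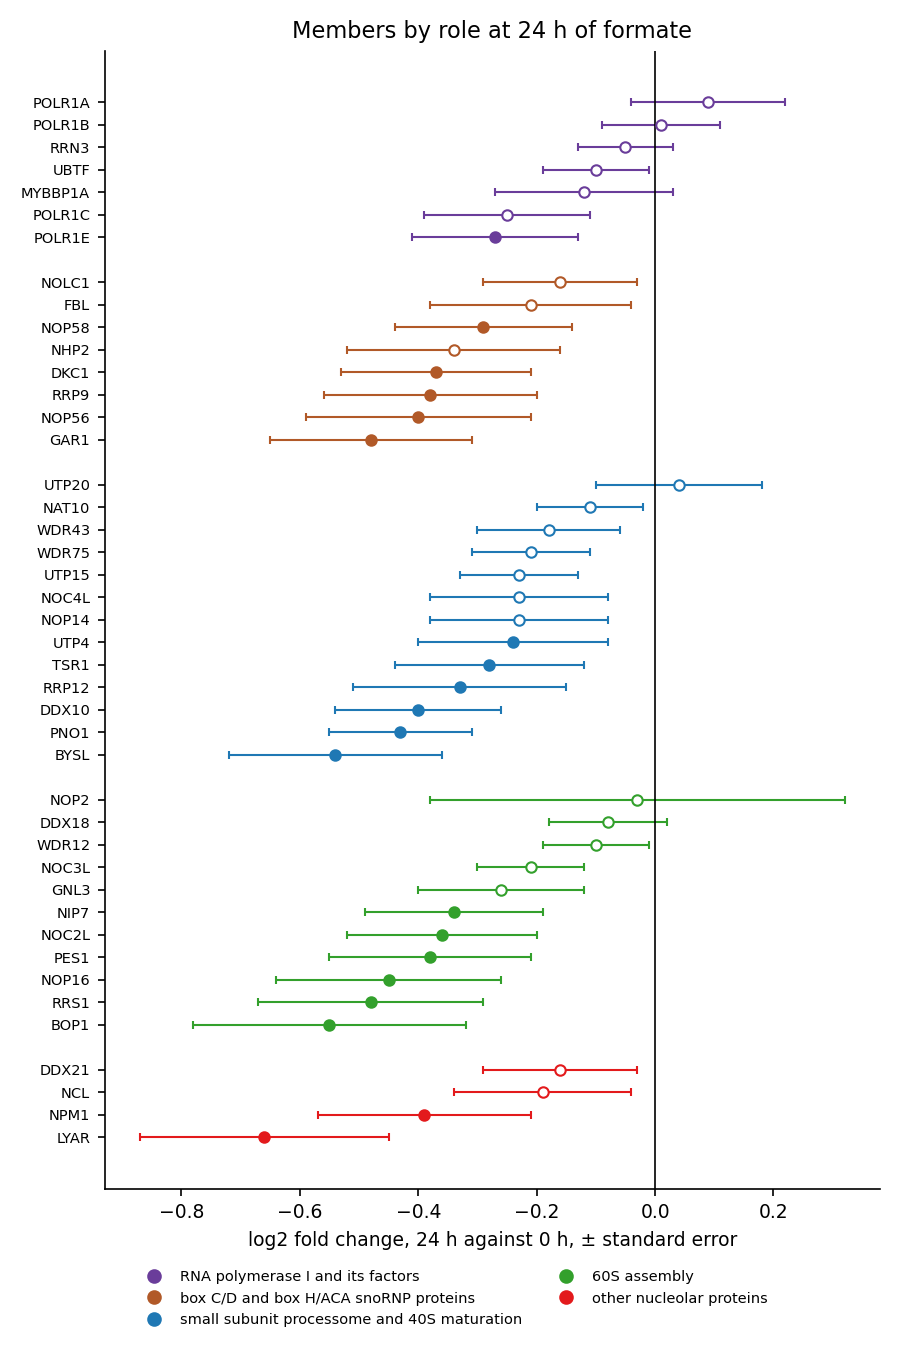
Fitted log2 fold change of each of the 43 genes at 24 h against 0 h, without the block, with its standard error as the bar; genes are ordered within their role, which the colour marks. Filled points are the 20 genes called with the replicate block and open points are the other genes; all but POLR1A, POLR1B and UTP20 lie below 0.

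Most of the genes stood highest in replicate 1. In the untreated group, the level in replicate 1 exceeded the mean of replicates 2 and 3 by a median of 0.43 on the log2 scale over the 43 genes, and by 0.23 at 8 h and 0.24 at 24 h; the median over all genes was -0.00 at each time. Replicate 1 was the highest library for 36 of 43 genes at 0 h, 41 at 8 h and 38 at 24 h, beside 43.4%, 38.7% and 38.6% of all genes. The log2 ratio of 24 h to 0 h had a median of -0.39 between libraries numbered 1, -0.17 between those numbered 2 and -0.26 between those numbered 3, where all genes had medians of -0.03, 0.02 and 0.00. The level was lower at 24 h for 38, 37 and 42 genes under numbers 1, 2 and 3, beside 52%, 47.3% and 50% of all genes. For 34 of 43 genes it was lower under each number, beside 26.8% of all genes. The shift was thus present under each number and was greatest where the untreated library was highest.

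Leaving out number 1 in all 3 groups gave 14 of 43 genes called lower and 0 higher without a block, where 16.9% of all genes passed and 7.96% passed as lower. Of these 14, 12 were also among the 20 called with the block, and the other 2 were WDR43 and DDX21. The count with the block depended on single libraries. With replicate 1 of 24 h left out 7 genes were called, all lower (5.91% of all genes passed as lower), with replicate 3 of 24 h left out 11 (7.88%) and with untreated replicate 2 left out 12 (7.27%). Over all single libraries left out the count ran from 7 to 23, and the 23 came without untreated replicate 1 (12.6% of all genes passed as lower).

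**Figure D4:**
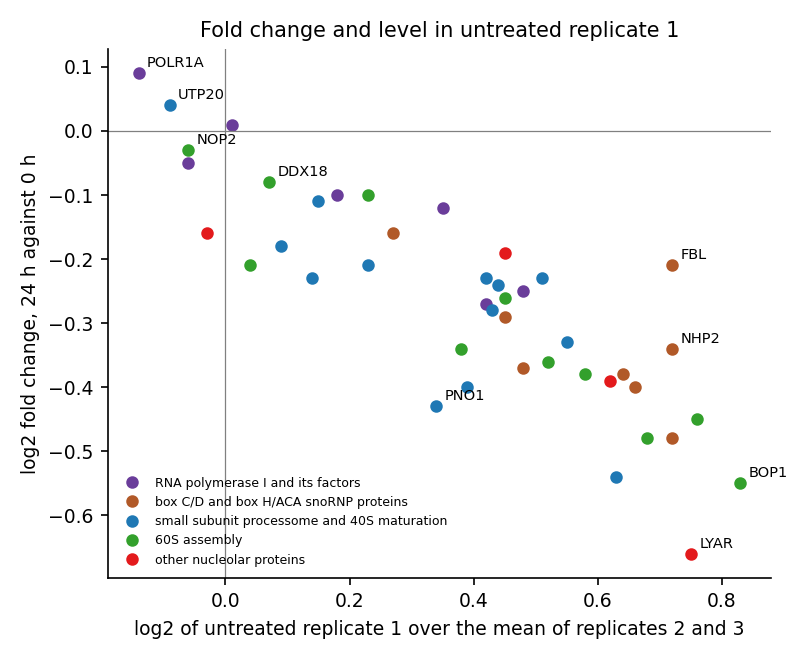
Fitted log2 fold change at 24 h against 0 h (vertical axis) against the log2 of the level in untreated replicate 1 over the mean of untreated replicates 2 and 3 (horizontal axis), 1 point for each of the 43 genes, coloured by role. Both axes use the untreated libraries. Genes farther to the right lie lower, from POLR1A at 0.09 to LYAR at -0.66.

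Across the 43 genes, the excess in untreated replicate 1 and the fold change at 24 h went together with a Spearman rho of -0.821, and across all tested genes with -0.656. Both measures use the same untreated libraries, and genes are not independent. The excess was also larger in genes with a shorter total exon length (rho -0.585, beside -0.353 over all genes) and in genes of higher GC content (0.503, beside 0.281). Ribosomal protein genes, which are abundant, were also highest in untreated replicate 1. Their summed level over 40 genes was 36260, 22620 and 21199 CPM in untreated replicates 1, 2 and 3 and 23103, 19650 and 21337 CPM after 24 h. The fold change at 24 h moved with the same properties. Its rho was 0.547 with total exon length (0.205 over all genes) and -0.246 with GC content (-0.112 over all genes). Genes with a greater total exon length thus lay nearer to 0. How much of the fold change goes with length, base composition or replicate 1 was not tested.

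RNA polymerase I and its factors had the median fold change nearest to 0 at 24 h. With the block 1 of these 7 genes was called lower (14.3%), close to the 11.6% of all genes that passed as lower. Without number 1 the count was 0 of 7, beside 7.96% of all genes. POLR1A (ENSG00000068654, GRCh38 chromosome 2, 86020216 to 86106155, minus strand), the largest catalytic subunit, stood at 94.1, 103 and 104 CPM in untreated replicates 1, 2 and 3, at 129, 118 and 102 CPM after 8 h and at 123, 105 and 91.6 CPM after 24 h. The groups overlapped, and its order by replicate differed from that of most of the genes, since untreated replicate 1 was its lowest at 0 h. Its log2 fold change at 24 h was 0.09 ± 0.13 (SE; edgeR adjusted p 0.665, 0.627 with the block). The sign turned without number 1, to -0.07. POLR1B, the second-largest subunit, stood at 117, 113 and 121 CPM at 0 h and 110, 124 and 119 CPM at 24 h, which overlap fully (log2 fold change 0.01 ± 0.10). Its sign turned under other size factors and with single libraries left out, with values from -0.04 to 0.05.

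The initiation factors of RNA polymerase I likewise did not pass. UBTF, the factor that keeps ribosomal DNA open and recruits the polymerase, stood at 171, 156 and 146 CPM at 0 h and at 151, 148 and 141 CPM at 24 h, with a log2 fold change of -0.10 ± 0.09 (SE; adjusted p 0.476, 0.344 with the block). RRN3, which couples the polymerase to the promoter in response to growth signals, stood at 51.0, 53.5 and 53.0 CPM at 0 h and 48.8, 52.2 and 51.7 CPM at 24 h. Its groups overlapped, and its log2 fold change was -0.05 ± 0.08 (SE); scaled by library totals alone it was 0.03. POLR1E, a polymerase subunit that takes part in initiation, was the member of this role called with the block. It stood at 111, 85.0 and 81.0 CPM at 0 h and 85.0, 76.6 and 67.8 CPM at 24 h, lower under each number but with overlap of the groups, and had a log2 fold change of -0.27 ± 0.14 (SE; adjusted p 0.233, 0.0321 with the block, 0.129 without number 1). POLR1C, a subunit shared with RNA polymerase III, and MYBBP1A, a nucleolar protein that binds MYB, had log2 fold changes of -0.25 and -0.12 and did not pass with the block (adjusted p 0.169 and 0.36).

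**Figure D5:**
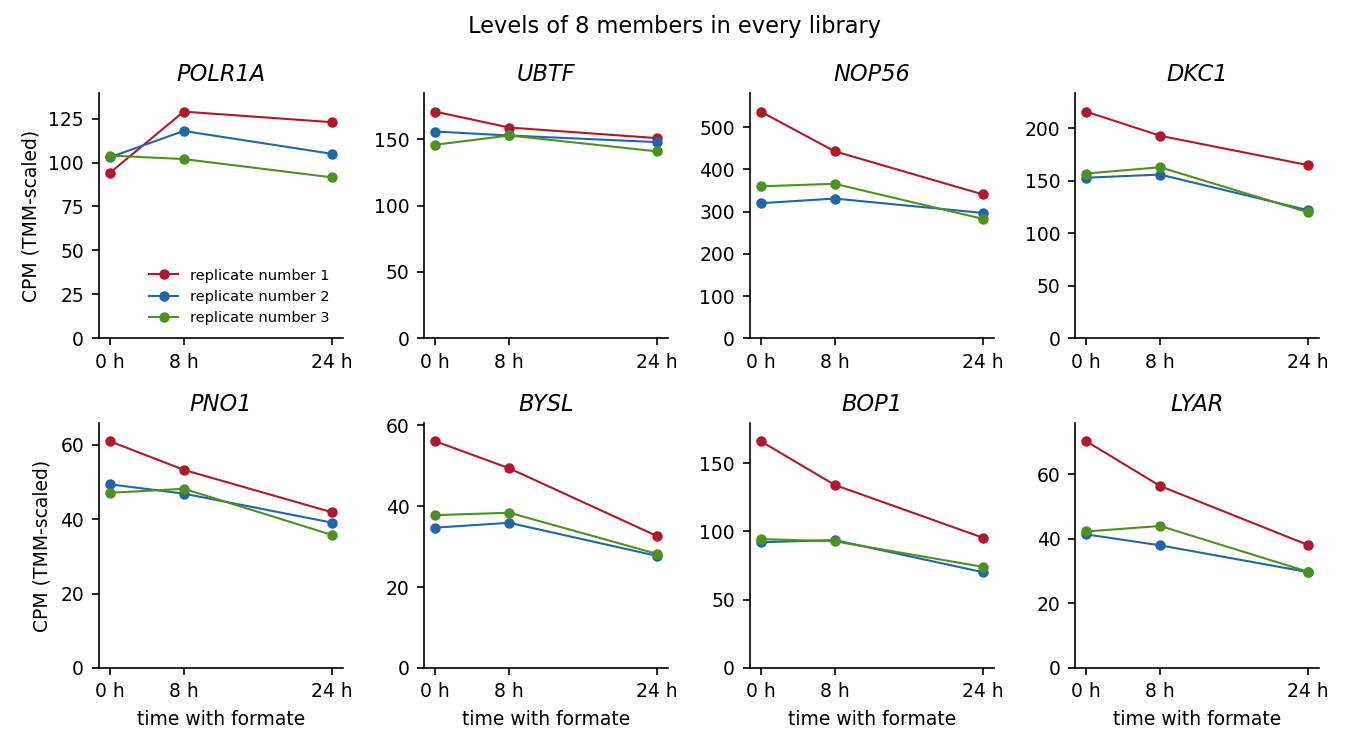
Level of 8 of the genes in each of the 9 libraries, in TMM-scaled CPM from 0, against time with formate in hours; colours mark the replicate number and lines join libraries of the same number. POLR1A and UBTF overlap between 0 h and 24 h, although all libraries of UBTF at 24 h lie below those of 8 h. LYAR, BYSL and PNO1 have all 3 libraries of 24 h below those of 0 h. NOP56, DKC1 and BOP1 overlap between 0 h and 24 h because replicate 1 at 24 h lies above or among untreated replicates 2 and 3.

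Of the genes for snoRNP proteins, 5 of 8 were called lower at 24 h with the block, where 11.6% of all genes passed as lower, 2 of 8 without number 1 (7.96%) and none in the fit to all libraries without the block. These particles guide chemical changes on ribosomal RNA: the box C/D kind adds methyl groups with the enzyme FBL, and the box H/ACA kind turns uridine into pseudouridine with the enzyme DKC1. GAR1 (ENSG00000109534, chromosome 4, 109815510 to 109824740, plus strand), a core box H/ACA protein, stood at 65.0, 39.2 and 39.5 CPM at 0 h, at 47.9, 41.6 and 44.5 CPM at 8 h and at 36.1, 34.9 and 32.1 CPM at 24 h. Every library of 24 h lay below every library of 0 h and of 8 h. The log2 fold change at 24 h was -0.48 ± 0.17 (SE; adjusted p 0.123, 0.0268 with the block), and without number 1 it was -0.23 (0.0798).

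DKC1 (ENSG00000130826, chromosome X, 154762742 to 154777689, plus strand) stood at 216, 153 and 157 CPM at 0 h, at 193, 156 and 163 CPM at 8 h and at 165, 122 and 120 CPM at 24 h. The ratio of 24 h to 0 h was nearly the same under each number, with log2 values of -0.39, -0.32 and -0.39, although replicate 1 lay above the others at each time. Its log2 fold change was -0.37 ± 0.16 (SE; adjusted p 0.178, 0.0077 with the block, 0.00697 without number 1). NOP56, a core box C/D protein, stood at 537, 320 and 360 CPM at 0 h and 341, 297 and 283 CPM at 24 h. Its log2 fold change was -0.40 ± 0.19 (SE; adjusted p 0.193, 0.023 with the block, 0.101 without number 1). Other genes overlap 8.74% of the exons of NOP56 and 5.85% of those of DKC1 on the same strand, mostly small nucleolar RNAs inside them, and 3 pseudogene copies of NOP56 are annotated.

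The partner of NOP56 in the same particle, NOP58, stood at 215, 158 and 157 CPM at 0 h and 174, 132 and 129 CPM at 24 h. Its log2 ratios under the 3 numbers were -0.31, -0.26 and -0.28, close to each other. It had a log2 fold change of -0.29 ± 0.15 (SE; adjusted p 0.236, 0.0497 with the block, 0.0214 without number 1). RRP9, a protein particular to the U3 snoRNP, had a log2 fold change of -0.38 ± 0.18 (SE; adjusted p 0.197, 0.036 with the block, 0.153 without number 1). FBL, the methyltransferase, did not pass (adjusted p 0.457, 0.296 with the block). It stood at 156, 96.0 and 93.0 CPM at 0 h and 107, 96.9 and 95.6 CPM at 24 h, so that replicates 2 and 3 barely moved, and without number 1 its log2 fold change turned from -0.21 to 0.03. NHP2, a core box H/ACA protein, and NOLC1, a snoRNP chaperone, had log2 fold changes of -0.34 and -0.16 and did not pass with the block (adjusted p 0.0594 and 0.127); 27.4% of the exons of NHP2 are covered on the opposite strand.

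Among the 13 factors of the small subunit processome and 40S maturation, 6 were called lower with the block and 4 without number 1. Of all genes, 11.6% and 7.96% passed as lower in these fits. BYSL and PNO1, which act late in 40S maturation, had the lowest fold changes of the role. BYSL (ENSG00000112578, chromosome 6, 41921188 to 41933046, plus strand), which helps process the 18S precursor, stood at 56.1, 34.7 and 37.8 CPM at 0 h, at 49.4, 35.9 and 38.4 CPM at 8 h and at 32.6, 27.7 and 28.2 CPM at 24 h. The libraries of 24 h all lay below those of 0 h and of 8 h. Its log2 fold change at 24 h was -0.54 ± 0.18 (SE; edgeR adjusted p 0.102, 0.00396 with the block, 0.0143 without number 1, and 0.0488 by DESeq2). PNO1 (ENSG00000115946, chromosome 2, 68157844 to 68176238, plus strand), a partner of the nuclease that makes the 3′ end of 18S RNA, stood at 61.0, 49.4 and 47.1 CPM at 0 h, 53.3, 46.9 and 48.2 CPM at 8 h and 41.9, 39.1 and 35.8 CPM at 24 h. Its untreated replicates differed less than those of BYSL, and all its libraries of 24 h lay below those of 0 h and of 8 h. Its log2 fold change was -0.43 ± 0.12 (SE; adjusted p 0.06, 0.0047 with the block, 0.0118 without number 1, and 0.0146 by DESeq2); 10.4% of its exons are overlapped on the opposite strand by a gene at no more than 0.141 CPM.

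TSR1, a GTPase-like protein of the pre-40S particle, stood at 210, 153 and 159 CPM at 0 h and 174, 134 and 123 CPM at 24 h. Its groups overlapped through replicate 1, and its log2 fold change was -0.28 ± 0.16 (SE; adjusted p 0.274, 0.026 with the block, 0.0248 without number 1); genes on the opposite strand overlap 20.8% of its exons. DDX10, an RNA helicase, had low counts beside the others, at 19.5, 15.4 and 14.4 CPM at 0 h and 13.8, 12.6 and 11.0 CPM at 24 h. All its libraries of 24 h lay below those of 0 h (log2 fold change -0.40 ± 0.14, adjusted p 0.123, 0.0183 with the block, 0.0736 without number 1). UTP4, of the subcomplex that joins the precursor first, and RRP12, an export and maturation factor, also passed with the block (adjusted p 0.0384 and 0.0323) and not without number 1 (0.0555 and 0.161). Their log2 fold changes were -0.24 and -0.33.

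UTP20 and NAT10 of the same role had the fold changes nearest to 0. UTP20, a very large scaffold protein of the processome, stood at 93.1, 93.0 and 105 CPM at 0 h and 117, 98.6 and 84.4 CPM at 24 h. Its groups overlapped and its log2 fold change was 0.04 ± 0.14 (SE), which turned to -0.11 without number 1. NAT10, the enzyme that acetylates cytidines of 18S RNA, stood at 82.7, 72.6 and 76.0 CPM at 0 h and 74.3, 71.4 and 68.2 CPM at 24 h (log2 fold change -0.11 ± 0.09, adjusted p 0.447, 0.313 with the block). The 5 other genes of the role that did not pass with the block, UTP15, WDR43, WDR75, NOP14 and NOC4L, had log2 fold changes between -0.23 and -0.18. WDR43 passed without number 1 (-0.30, adjusted p 0.0203), and is named here after its values were seen.

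Of the 11 factors of 60S assembly, 6 were called lower with the block, and the same number without number 1. Of all genes, 11.6% passed as lower with the block and 7.96% without number 1. BOP1 (ENSG00000261236, chromosome 8, 144262102 to 144291370, minus strand) forms with PES1 and WDR12 the complex that processes the 28S precursor. It stood at 166, 92.0 and 94.3 CPM at 0 h, at 134, 93.6 and 92.7 CPM at 8 h and at 95.4, 70.1 and 74.0 CPM at 24 h. Replicate 1 at 24 h lay just above untreated replicates 2 and 3, so the groups overlapped, but each number was lower at 24 h. The log2 fold change was -0.55 ± 0.23 (SE; adjusted p 0.158, 0.00347 with the block, 0.00592 without number 1). PES1 stood at 252, 172 and 166 CPM at 0 h and 177, 140 and 137 CPM at 24 h (log2 fold change -0.38 ± 0.17, adjusted p 0.178, 0.0126 with the block, 0.0186 without number 1). WDR12, the remaining subunit, had a log2 fold change of -0.10 and did not pass (adjusted p 0.489, 0.365 with the block); whether it differed from its partners was not tested.

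RRS1 (ENSG00000179041, chromosome 8, 66429028 to 66430733, plus strand), which brings the 5S particle to the growing subunit, stood at 81.7, 50.7 and 51.2 CPM at 0 h, at 68.2, 51.3 and 52.2 CPM at 8 h and at 49.1, 39.7 and 42.2 CPM at 24 h. Its libraries of 24 h all lay below those of 0 h and 8 h, and the log2 fold change was -0.48 ± 0.19 (SE; adjusted p 0.138, 0.00692 with the block, 0.0175 without number 1). On the same strand, a second gene model covers 11.4% of its exons. NOP16, NOC2L and NIP7, which act in 60S assembly, were also called with the block, with log2 fold changes of -0.45, -0.36 and -0.34 (adjusted p 0.0207, 0.0125 and 0.0118), and without number 1 (0.0406, 0.0341 and 0.0133). Genes on the opposite strand overlap 20% of the exons of NOP16, 6.82% of NOC2L and 20.2% of NIP7, and the strand setting of the counts is not given in the sources used here.

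Other 60S genes were nearer to 0. GNL3, the GTPase called nucleostemin, stood at 132, 94.9 and 98.7 CPM at 0 h and 101, 89.6 and 81.7 CPM at 24 h (log2 fold change -0.26 ± 0.14, adjusted p 0.25, 0.0559 with the block). NOP2, a methyltransferase of 28S RNA, was listed at 1.12 to 2.52 CPM at all times, the lowest of the 43. A second gene model on the same strand covers 54.4% of its exons, so that its counts are uncertain, and its log2 fold change of -0.03 ± 0.35 (SE) turned to 0.15 without number 1. NOC3L and DDX18 had log2 fold changes of -0.21 and -0.08.

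The 4 other nucleolar proteins included the gene with the lowest fold change. With the block 2 of the 4 were called lower (11.6% of all genes), and without number 1 also 2 (7.96%). LYAR (ENSG00000145220, chromosome 4, 4267701 to 4290169, minus strand), a zinc finger protein of growing cells, stood at 70.3, 41.4 and 42.3 CPM at 0 h, at 56.4, 38 and 44 CPM at 8 h and at 38.1, 29.7 and 29.8 CPM at 24 h. All libraries of 24 h lay below those of 0 h, and replicate 1 at 24 h was just above the lowest of 8 h. The log2 fold change at 24 h was -0.66 ± 0.21 (SE; edgeR adjusted p 0.0929, 0.00152 with the block, 0.00503 without number 1, and 0.0345 by DESeq2). NPM1, nucleophosmin, a chaperone that makes up much of the nucleolus, stood at 1329, 892 and 839 CPM at 0 h and 882, 752 and 700 CPM at 24 h (log2 fold change -0.39 ± 0.18, adjusted p 0.184, 0.018 with the block, 0.0575 without number 1). The annotation holds 45 pseudogene copies of NPM1, which leave its counts uncertain.

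NCL, nucleolin, the most abundant of the 43 in CPM, stood at 1452, 1063 and 1062 CPM at 0 h and 1194, 1020 and 916 CPM at 24 h. It did not pass in any of these fits (log2 fold change -0.19 ± 0.15, adjusted p 0.437, 0.137 with the block, 0.31 without number 1). DDX21, an RNA helicase that links RNA polymerase I transcription with processing, stood at 342, 344 and 352 CPM at 0 h, at 434, 358 and 355 CPM at 8 h and at 367, 297 and 267 CPM at 24 h. Its untreated replicates were close together, and at 8 h all libraries lay above them. From 0 h to 24 h its log2 fold change was -0.16 ± 0.13 (SE; adjusted p 0.456, 0.22 with the block), and without number 1 it passed at -0.30 (adjusted p 0.0245).

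After 8 h of formate no difference was detected. By edgeR's quasi-likelihood test, 0 of 43 genes passed, as for 0% of all genes; 0 of 43 had an unadjusted p under 0.05, beside 0.517% of all genes, and DESeq2 and the fit with the block also called 0. The median log2 fold change was -0.05 (all genes -0.02), from -0.17 (NHP2) to 0.21 (POLR1A), and 31 of 43 lay below 0, beside 56.7% of all genes. The summed level was 7424, 6221 and 6306 CPM at 8 h. It was lower than at 0 h in replicate 1 only, with median log2 ratios of -0.16, 0.02 and 0.03 under numbers 1, 2 and 3. Without untreated replicate 1 the median turned to 0.11. DDX21 was the single gene whose libraries of 8 h did not overlap those of 0 h (log2 fold change 0.14, adjusted p 1), beside 3.31% of all genes in either direction.

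Between 8 h and 24 h all 43 fitted log2 fold changes lay below 0, beside 47.9% of all genes, with a median of -0.23 (all genes 0.02) and a range from -0.50 (LYAR) to -0.03 (WDR12). In the fit without number 1 in all groups 41 of 43 lay below 0, and the highest was 0.12 (NOP2). Without the block 0 of 43 passed edgeR's test, where 4.56% of all genes passed (1.72% lower), the smallest adjusted p was 0.109 (PNO1), and 6 of 43 had an unadjusted p under 0.05, beside 22.8%. DESeq2 also called 0, where 9.73% of all genes passed (4.26% lower). All libraries of 24 h lay below those of 8 h for 12 genes, beside 16.2% of all genes. Leaving out number 1 in all groups, 17 of 43 passed, all lower, where 19.9% of all genes passed and 9.38% passed as lower. BYSL had a log2 fold change of -0.48 (adjusted p 0.14, 0.00847 without number 1), BOP1 of -0.42 (0.3, 0.00525) and DKC1 of -0.33 (0.25, 0.0035). The count without the block depended on 1 library, since 7 of 43 passed as lower without untreated replicate 1, where 7.87% of all genes did. That library enters here through the shared estimate of the spread. Without replicate 1 of 24 h, 1 passed as lower (2.52% of all genes). The comparisons of 24 h with 0 h and with 8 h share the libraries of 24 h. Asked for a difference anywhere among the 3 groups, edgeR called 0 of 43 (3.64% of all genes). DESeq2 called 1 (9.98%), edgeR with the block 15 (19.6%) and edgeR without number 1 15 (16%). In edgeR's test without the block 5 of 43 had an unadjusted p under 0.05. The share of all genes with such a p is not given here, so the 5 stands without a background.

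The rest of the pathway was read from 4 lists with 106 further genes, all tested. At 24 h against 0 h none passed edgeR's test without the block, 34 of 106 had an unadjusted p under 0.05 (26.4% of all genes), and DESeq2 called 4 (10.8% of all genes). With the block 34 passed, all lower (32.1%, beside 11.6% of all genes), and without number 1 22 passed, all lower (20.8%, beside 7.96%). The median log2 fold change was -0.22, and 93 of 106 lay below 0. By list, 4 of 12 other RNA polymerase I and SL1 factors passed with the block, 13 of 40 other small subunit factors, 15 of 40 other 60S factors and 2 of 14 nuclear exosome genes. Without number 1 these counts were 2, 9, 11 and 0. In the first list the polymerase subunit POLR1G (log2 fold change -0.43, adjusted p 0.00462 with the block) and the nucleolar phosphoprotein gene TCOF1 (-0.39, 0.00745) also passed without number 1 (0.0128 and 0.018). The subunit POLR1H (-0.41, 0.0469 with the block) did not (-0.20, adjusted p 0.233). The same list also holds ZNF593, a zinc finger protein whose yeast counterpart acts on the 60S precursor rather than in the polymerase. It passed with the block (-0.52, 0.0307) and not without number 1 (-0.26, 0.144). Genes on the opposite strand overlap 100% of the exons of ZNF593, 45.1% of POLR1G and 24.5% of POLR1H, and the counts of these genes are uncertain for that reason. The 2 exosome genes that passed with the block were EXOSC5 (-0.47, 0.0429) and MPHOSPH6 (-0.36, 0.036), and without number 1 the smallest adjusted p among the 14 was 0.124. At 24 h against 8 h none of the 106 passed without the block, 16 had an unadjusted p under 0.05 (22.8% of all genes), and the median was -0.17. As lower, 21 passed without untreated replicate 1 (7.87% of all genes) and 29 without number 1 (9.38%).

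Genes of neighbouring processes give the surroundings of these values at 24 h against 0 h. Of 40 cytosolic ribosomal protein genes none passed without the block, and 8 passed with it, all lower, beside 11.6% of all genes. An unadjusted p under 0.05 in edgeR's test without the block was found for 7 of the 40 (26.4% of all genes). DESeq2 called 0 (10.8% of all genes). All 40 fitted values lay below 0, with a median of -0.33. Without number 1 the median was -0.11, 38 of 40 lay below 0 and 3 passed as lower (7.96% of all genes). Of 11 subunits of RNA polymerase III, which makes 5S and transfer RNA, none passed without the block. There 3 had an unadjusted p under 0.05 (26.4% of all genes), and DESeq2 called 1 (10.8%). With the block 3 passed as lower (POLR3K, POLR3C and POLR3D), beside 11.6% of all genes. As higher, 1 passed (POLR3G, log2 fold change 0.42, adjusted p 0.0111), beside 1921 of all 15273 genes. The median of the 11 was -0.12. Without number 1, POLR3C and POLR3G passed (adjusted p 0.0186 and 0.0217). Of 15 genes of G2 and mitosis 8 passed as lower without the block, with a median of -0.52, beside 1.77% of all genes. With the block 10 passed as lower (11.6% of all genes), and 13 did so without number 1 (7.96%). Of 15 S phase genes 3 passed as higher without the block, with a median of 0.31, beside 378 of all 15273 genes. With the block 9 passed as higher and 1 as lower (1921 and 1766 of 15273). Without number 1, 7 passed as higher (1364 of 15229). These cell cycle lists moved in the same comparison, and their part in the level of ribosome biogenesis genes was not tested.

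Levels per kilobase of annotated exon set the order among the genes at 0 h. NPM1 was highest at 266 ± 70.3 CPM per kb (SD, n = 3), followed by NCL at 172 ± 32.5, NHP2 at 82.2 ± 25.3, NOP56 at 75.1 ± 21.5 and DDX21 at 68.9 ± 1.14. The last 3 did not differ beyond their spread. The RNA polymerase I subunits stood far apart in this measure, with POLR1E at 36.8 ± 6.5, POLR1B at 18.5 ± 0.569, POLR1A at 7.42 ± 0.402 and POLR1C at 3.95 ± 0.794 CPM per kb. UBTF was at 22.5 ± 1.8, with LYAR at 22.1 ± 7.09 and UTP4 at 21.8 ± 4.04 next to it within the spread. The lowest were DDX10 at 1.9 ± 0.31 and NOP2 at 0.383 ± 0.15. Exon length here is the union over all annotated transcripts, so a gene with long rare exons appears lower than its main transcript would.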

How the data were processed

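Stranded mRNA libraries were made from total RNA with an integrity number above 9, per the labels' protocols. Per the submitters' processing notes, bcl2fastq 2.20.0.422 and STAR 2.7.4a were used, with GRCh38; the counting program, annotation and strand setting are not given in the sources used here. The authors deposited raw counts, a whole number per Ensembl gene and library. A table of identifiers named 19733 of the 23727 genes, and GENCODE 29 held 23252 and gave coordinates, exon lengths and overlaps. The 43 genes and all lists were chosen with earlier results of these data known.

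Low counts were removed with filterByExpr, leaving 15273 genes. Library sizes were scaled with TMM, and edgeR 4.0.16 (R 4.3.3) fitted 1 mean per group over all 9 libraries, with glmQLFit and glmQLFTest, two-sided, and Benjamini-Hochberg adjustment over all tested genes; an adjusted p under 0.05 was called. CPM values use the TMM factors. The biological coefficient of variation was 0.137, and 0.0956 with the replicate number as a block. The numbers come from the titles; the correlation of deviations between same-numbered libraries was 0.367, 0.164 and 0.251 between 0 h and 24 h, and 0.476, 0.432 and 0.414 between 0 h and 8 h, which was taken as pairing. Between differently numbered libraries it ran from -0.4 to 0.27 and from -0.364 to 0.0108. The 0.27, between replicate 2 of 24 h and untreated replicate 3, exceeded 2 of the same-numbered values. Between 8 h and 24 h the same-numbered values were 0.423, 0.0367 and 0.404, which was not taken as pairing. Differently numbered values there ran from -0.44 to 0.134. Replicate 2 of 24 h correlated best with replicate 3 in both comparisons, so treating them differently rests on a small difference. The block gives each number 1 effect over all 3 groups. Its calls at 24 h against 0 h therefore also take the numbers to pair 8 h with 24 h. The same holds for its coefficient of variation and for its test over the 3 groups. Alternatives were other size factors, library totals, other filters, DESeq2 1.42.0, limma 3.58.1 (voom), the block, each library left out and number 1 left out. The fits with the block combined with another choice were added after seeing the data. The scripts were tested on simulated data. Genes named are those called in any fit with or without the block, up to 20, and a set of representatives of each role; further members are named to account for all 43. From other lists, genes are named where 5 or fewer passed. Promoters are RefSeq windows on GRCh38.p14, searched for exact letters.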

Additional observations from a re-analysis of the deposited data

How the results depend on the processing

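At 24 h against 0 h, 0 of 43 genes passed edgeR's test without the block (1.77% of all genes as lower). DESeq2 called 3 (5.13%), the replicate block 20 (11.6%) and the fit without number 1 in all groups 14 (7.96%). For the 106 pathway genes DESeq2, the block and the fit without number 1 called 4, 34 and 22. With single libraries omitted and no block, the count among the 43 was 0 each time. When the omitted library was number 2 or 3 of the 24 h group, 0% of all genes were called. Those zeros therefore say nothing particular about the 43. In the other such fits 1.82% to 5.76% of all genes were called. With the block, leaving out 1 library gave 7 to 23 genes (12 without untreated replicate 2, 7 without replicate 1 of 24 h and 11 without replicate 3 of 24 h, where 7.27%, 5.91% and 7.88% of all genes passed as lower). At 24 h against 8 h the numbers were not taken to pair the libraries. There the replicate block called 15 (20.5% of all genes, 8.71% as lower). The fit to the compared libraries alone called 5, and the fit without number 1 called 17 (9.38% of all genes as lower). The leave-one-out range was 0 to 7, where 0% to 16.3% of all genes passed (the 7 beside 7.87% as lower). For the pathway genes these were 20, 4, 29 and 0 to 21, with the 20, 29 and 21 beside the same shares. The test over the 3 groups called 1 with DESeq2 (9.98% of all genes), 15 with the block (19.6%) and 15 without number 1 (16%). In its leave-one-out fits it called 0 to 2. The share of all genes is not given here for those fits or for the compared libraries alone. Their counts therefore stand without a background. The member median ranged in the leave-one-out fits from -0.12 to 0.11 at 8 h, from -0.34 to -0.14 at 24 h against 0 h and from -0.31 to -0.18 at 24 h against 8 h, where library totals alone gave -0.17. The E-box share was 13.9% with only the bases before the start.

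Signs turned in 6 named genes at 24 h against 0 h, none of them called in either fit: POLR1A (-0.07 without number 1, leave-one-out -0.03 to 0.18), POLR1B (-0.0038 with RLE factors and with DESeq2, -0.00037 with no filter, leave-one-out -0.04 to 0.05), RRN3 (0.03 with library totals), FBL (0.03 without number 1, leave-one-out -0.33 to 0.06), UTP20 (-0.11 without number 1, leave-one-out -0.09 to 0.14) and NOP2 (0.05 with library totals, 0.03 with voom, 0.15 without number 1, leave-one-out -0.29 to 0.30). At 8 h UTP20 gave -0.01 without number 1. The causes were not tested. Over the named genes at 24 h against 0 h, 532 of the values recomputed kept direction and side of the threshold, 36 newly passed and 21 turned sign. With 3 libraries a group, log2 standard errors of the members at 24 h against 0 h were 0.08 to 0.23 (0.35 for NOP2), so changes of the size seen here lay near what could be called.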
